A study of Drosophila melanogaster with 4 samples.

Results

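Both wing disc libraries that carried a UAS transgene were compared with both that carried none, and the change that the pair of transgene libraries shared was described across genes. The comparison took all 4 libraries of the series, 2 on each side, sorted by genotype alone. On one side stood the libraries labelled FH-cortoCD (sd::Gal4>UAS::FH-cortoCD) and RpL12-Myc (sd::Gal4>UAS::RpL12-Myc), called the assays hereafter. On the other stood sd::Gal4/+, with the driver but no UAS transgene, and the w1118 line, with neither, called the controls. Gal4 is a yeast activator that here follows the wing expression of scalloped, and it turns on transgenes placed under UAS sites. The FH-cortoCD construct holds the Corto chromodomain, Corto being a cofactor of Polycomb and trithorax proteins, with Flag and HA tags and a nuclear localization signal. RpL12-Myc is the large subunit ribosomal protein RPL12 with a Myc tag. All lines had been made isogenic with w1118. Each library came from 1 pool of 300 discs (6 batches of 50, 1 disc per larva) of female larvae in the third instar, and each UAS construct is represented by a single line.

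Replicates of 1 genotype were not part of the design. The spread within the assays therefore holds the difference between 2 transgenes, the spread within the controls holds the presence or absence of the driver, and an adjusted p-value measures only how far a gene's assay-to-control difference exceeds these. Pairs of libraries were compared by the SD of their log2 ratios over 6905 genes, each with 100 or more reads per library. It was 0.200 for the pair of assays and 0.215 for the pair of controls, but 0.474 to 0.516 in the 4 pairs of an assay with a control. Total counts were 43698298 and 44736060 in the assays, against 35219666 and 26833482 in the controls, so the controls, above all w1118, carry the larger counting error. All values below are CPM, the counts of an entry scaled to a common library size, after TMM scaling, a correction for library size and composition. Values are given in the order FH-cortoCD and RpL12-Myc for the assays and sd::Gal4/+ and w1118 for the controls, unless stated otherwise.

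The genes of the constructs were looked at first. RpL12 had 689.8 and 549.6 CPM in the assays, against 489.6 and 357 CPM in the controls, a log2 fold change of 0.55 ± 0.16 (adjusted p = 0.0321), and so was highest in the library labelled FH-cortoCD and not in the one labelled RpL12-Myc. The call was lost with DESeq2 (adjusted p = 0.118), in a fit of 1 entry per gene (adjusted p = 0.0612) and without FH-cortoCD (adjusted p = 0.147) or w1118 (adjusted p = 0.146). corto had 146 and 179 CPM in the assays, against 218 and 194 CPM in the controls, -0.34 ± 0.11 on the log2 scale (adjusted p = 0.048), a call that was lost with all entries added up (adjusted p = 0.0708) and without FH-cortoCD (adjusted p = 0.192) or sd::Gal4/+ (adjusted p = 0.177). The genotype field of the public record names the transgenes of the assays the other way round from the titles, which were followed here, and corto, like RpL12, was the higher of the assays where that field and not the title names it. Both libraries carry a UAS transgene either way, so the grouping does not turn on this. Every statement below on which assay is the higher does turn on it, and FH-cortoCD and RpL12-Myc there mean the libraries so labelled. The white gene, whose mini-white form marks most transgene vectors, had 446 and 559 CPM in the assays, against 224 and 0.214 CPM in the controls, close to nothing in w1118 alone, and was not called (2.16, adjusted p = 0.283) unless either control was left out. sd itself, the gene at which the driver sits, had 239.9 and 226 CPM in the assays, against 284 and 328 CPM in the controls (-0.39 ± 0.10, adjusted p = 0.015, lost without RpL12-Myc or w1118).

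Some background helps in reading the gene groups. A wing imaginal disc is a sac of epithelium in the larva that grows by cell division and becomes the wing, hinge and notum of the fly, with a layer of muscle precursors beneath. Growing discs make ribosomes at a high rate, and their cytosolic ribosomal protein genes are among the most abundant messengers of the cell. Mitochondria carry a small genome of their own for part of the respiratory chain, while the remaining subunits, and all mitochondrial ribosomal proteins, are encoded in the nucleus. The Hsp70 genes are near-silent without heat and are switched on strongly by it.

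Of 9016 named genes with enough reads to test, 1866 (20.7%) were called higher in the assays and 1582 (17.5%) lower, by edgeR's quasi-likelihood test at an adjusted p below 0.05. Each gene was read from its most abundant entry, an entry being a transcript or the exons that a set of transcripts shares. Over all 20118 entries tested, 3679 (18.3%) were higher and 3854 (19.2%) lower. Changes were mostly small. The median size was 0.52 on the log2 scale among genes called higher and 0.56 among those called lower, and 354 and 336 of them passed 1. Both assays were above both controls for 3403 genes (37.7%) and below both for 3000 (33.3%). All 1866 genes called higher and 1580 of the 1582 called lower had groups that did not overlap. The median log2 fold change over all genes was 0.027. Genes called higher made up 54.1% of the calls, but 42.4% when libraries were scaled by their totals only. Leaving out w1118 brought the genes called higher to 1076, and leaving out either control brought the entries called higher to 2274 (w1118) and 2417 (sd::Gal4/+).

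**Figure D1:**
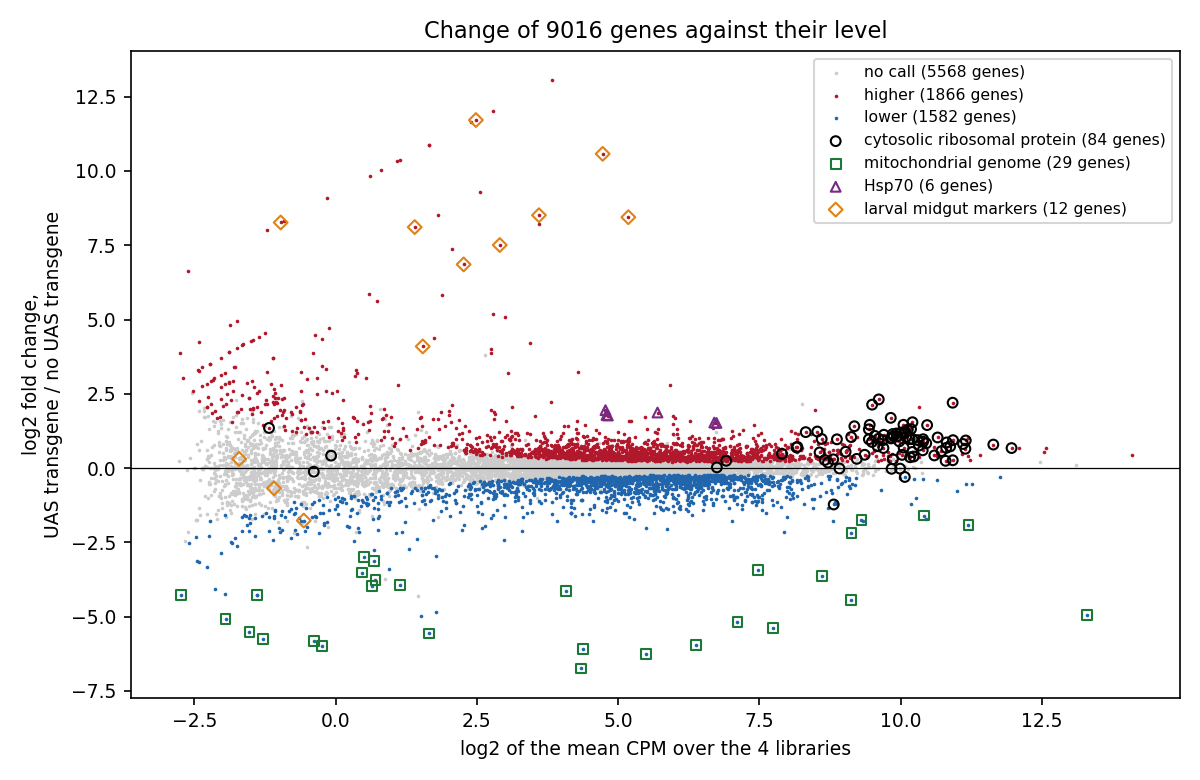
Each of 9016 genes is plotted by its mean level over the 4 libraries (log2 CPM, horizontal) and its log2 fold change, UAS transgene over no UAS transgene (vertical), with 1866 genes called higher in red and 1582 called lower in blue. Cytosolic ribosomal protein genes gather above 0 at the high end of the level axis, genes of the mitochondrial genome lie below 0 at every level, and the larval midgut markers with the largest values lie far above 0.

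The cytosolic ribosomal protein genes were higher in the assays as a group. Of 84 tested, 70 (83.3%) were called higher and 2 (2.38%) lower, against 20.7% and 17.5% of all genes. Their median was 0.88 on the log2 scale against 0.027 over all genes. Summed, they took 11.5% and 10.04% of all counts in the assays and 6.58% and 6.23% in the controls. RpL31, of the large subunit, had 1517 and 1089.7 CPM in the assays, against 259.8 and 265 CPM in the controls, the largest gap between the groups in the family (2.31 ± 0.15, adjusted p = 0.000112). RpL27, also of the large subunit, followed with 3725 and 2641 CPM in the assays, against 731 and 654 CPM in the controls (2.20 ± 0.16, adjusted p = 0.000141). FH-cortoCD was above RpL12-Myc in both of these genes, and the controls nearly coincided.

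Of the small subunit, RpS23 had 1480.3 and 1290.1 CPM in the assays, against 473 and 385 CPM in the controls (1.69 ± 0.12, adjusted p = 0.000141). RpL17, of the large subunit, had 1642 and 1466 CPM in the assays, against 597 and 535 CPM in the controls (1.46 ± 0.10, adjusted p = 0.000112). In both of them the assays lay above 2 times the higher control. The 2 genes that were lower were RpL38, with 333 and 207 CPM in the assays, against 625 and 637 CPM in the controls (-1.22 ± 0.19, adjusted p = 0.00245), and RpL22, with 934 and 999 CPM in the assays, against 1161 and 1217 CPM in the controls (-0.30 ± 0.08, adjusted p = 0.0208, lost without either control). Of the 70 genes called higher, 28 exceeded 1 on the log2 scale.

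All 29 genes of the mitochondrial genome that were tested were called lower in the assays. Together they held 0.333% and 0.240% of counts in the assays, against 3.93% and 2.29% in the controls. The 13 protein-coding genes fell by a median of 4.12 on the log2 scale. mt:ND2, a subunit of complex I, had 3.58 and 1.69 CPM in the assays, against 148 and 179 CPM in the controls (-5.96 ± 0.28, adjusted p = 5.47e-05). mt:ND6, of the same complex, had 1.57 and 0.752 CPM in the assays, against 102 and 74.8 CPM in the controls (-6.26 ± 0.28, adjusted p = 5.47e-05). mt:ATPase6, of the ATP synthase, had 59.8 and 38 CPM in the assays, against 1030.3 and 1103 CPM in the controls (-4.45 ± 0.21, adjusted p = 5.47e-05). The smallest fall among the 13 was 1.60 on the log2 scale.

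Among the 16 RNA genes of that genome, the large ribosomal RNA mt:lrRNA was the most abundant, with 768 and 499 CPM in the assays, against 27406 and 11731 CPM in the controls (-4.95 ± 0.42, adjusted p = 0.000209). The controls differed from each other by over 2 times there, and the assays were both far below. mt:tRNA:Leu-TAG had 0.427 and 0.319 CPM in the assays, against 38.9 and 41.4 CPM in the controls (-6.74 ± 0.16, adjusted p = 4.99e-06). The median of the 16 was -4.61, and -3.65 with libraries of fewer than 3 reads set at 3 reads. Of 24 RNA genes listed, only these 16 had enough reads to test. The 7 with a library under 3 reads passed the filter on low counts mostly through the controls, where they are high. Their calls are therefore largely set by that filter. The libraries were made from polyadenylated RNA, and the part of that selection in these values was not tested.

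Nuclear genes of the respiratory chain went the other way. Of 72 tested, 56 (77.8%) were higher and 2 (2.78%) lower, against 20.7% and 17.5% of all genes, with a median of 0.69. UQCR-Q, a small subunit of complex III, had 123 and 89.8 CPM in the assays, against 19 and 11.6 CPM in the controls (2.78 ± 0.23, adjusted p = 0.000203). ND-B17, of complex I, had 63.4 and 48.8 CPM in the assays, against 19.7 and 18 CPM in the controls (1.57 ± 0.13, adjusted p = 0.000222). ATPsyndelta, of the ATP synthase, had 211 and 209 CPM in the assays, against 93.4 and 80.3 CPM in the controls (1.28 ± 0.09, adjusted p = 0.000142). The most abundant of the list, blw, the alpha subunit of the same enzyme, had 1814 and 1997 CPM in the assays, against 1218 and 1138 CPM in the controls (0.69, adjusted p = 0.000787). In all 4 genes the assays stood clear of the controls, and for blw the order within the assays was reversed, RpL12-Myc being the higher. The 2 that fell were ND-AGGG (-0.69) and UQCR-11 (-0.59), both on the heterochromatic arm 3LHet. Mitochondrial ribosomal protein genes were higher in 40 of 75 cases (53.3%) and lower in 1 (1.33%), against 20.7% and 17.5%, with a median of 0.39. The exception was mRpS5, at 11.6 and 9.58 CPM in the assays against 31.4 and 29.7 in the controls (-1.53), while mRpL33 led the rises with 19.4 and 16 CPM in the assays against 4.97 and 5.61 in the controls (1.75).

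All 6 Hsp70 genes were higher in the assays, against 20.7% of all genes, with a median of 1.78. Hsp70Ab, of the cluster at 87A, had 172 and 145 CPM in the assays, against 58.9 and 51.7 CPM in the controls (1.52 ± 0.11, adjusted p = 0.000141), and its neighbour Hsp70Aa had 167 and 142 CPM in the assays against 57.3 and 49.7 in the controls (1.53). Of the other cluster, Hsp70Ba had 97.1 and 65.9 CPM in the assays, against 24.8 and 19.7 CPM in the controls (1.87 ± 0.19, adjusted p = 0.000406). Hsp70Bb (1.77), Hsp70Bbb (1.95) and Hsp70Bc (1.79) lay at 33.8 to 53.5 CPM in the assays, against 10.6 to 13.9 CPM in the controls. FH-cortoCD was the higher assay and sd::Gal4/+ the higher control in each of the 6. These genes are near-identical copies and only reads that matched a single place were kept, so the division of reads among them is uncertain and the 6 are not 6 separate observations.

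Of 11 other heat-inducible genes, 8 were higher (72.7%) and 1 lower (9.09%), against 20.7% and 17.5% of all genes, with a median of 0.69. Hsp26, a small heat shock protein, had 419 and 379 CPM in the assays, against 197 and 163 CPM in the controls (1.15 ± 0.11, adjusted p = 0.000337). Hsp68, a relative of Hsp70, had 82.5 and 57.7 CPM in the assays against 32.2 and 27.9 in the controls (1.22), and Hsp22, a mitochondrial small heat shock protein, 12 and 10.4 CPM in the assays against 6.15 and 5.07 in the controls (0.99). Hsp83, the fly Hsp90 and the most abundant of the list, rose less, with 3114 and 3120.5 CPM in the assays against 2272 and 2314 in the controls (0.44). Hsp27 was the one that fell, with 1337 and 1405 CPM in the assays against 1714 and 1924 in the controls (-0.41, lost without w1118). Among chaperones that cells make without heat, 6 of 9 were higher (66.7%, against 20.7% of all genes) and none lower, with a median of 0.29. Hsc70-4, the main constitutive Hsp70, had 6659 and 7461 CPM in the assays against 4731 and 4994 in the controls (0.54), and CCT5, a subunit of the chaperonin that folds actin and tubulin, 666 and 723 CPM in the assays against 407 and 397 in the controls (0.79).

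**Figure D2:**
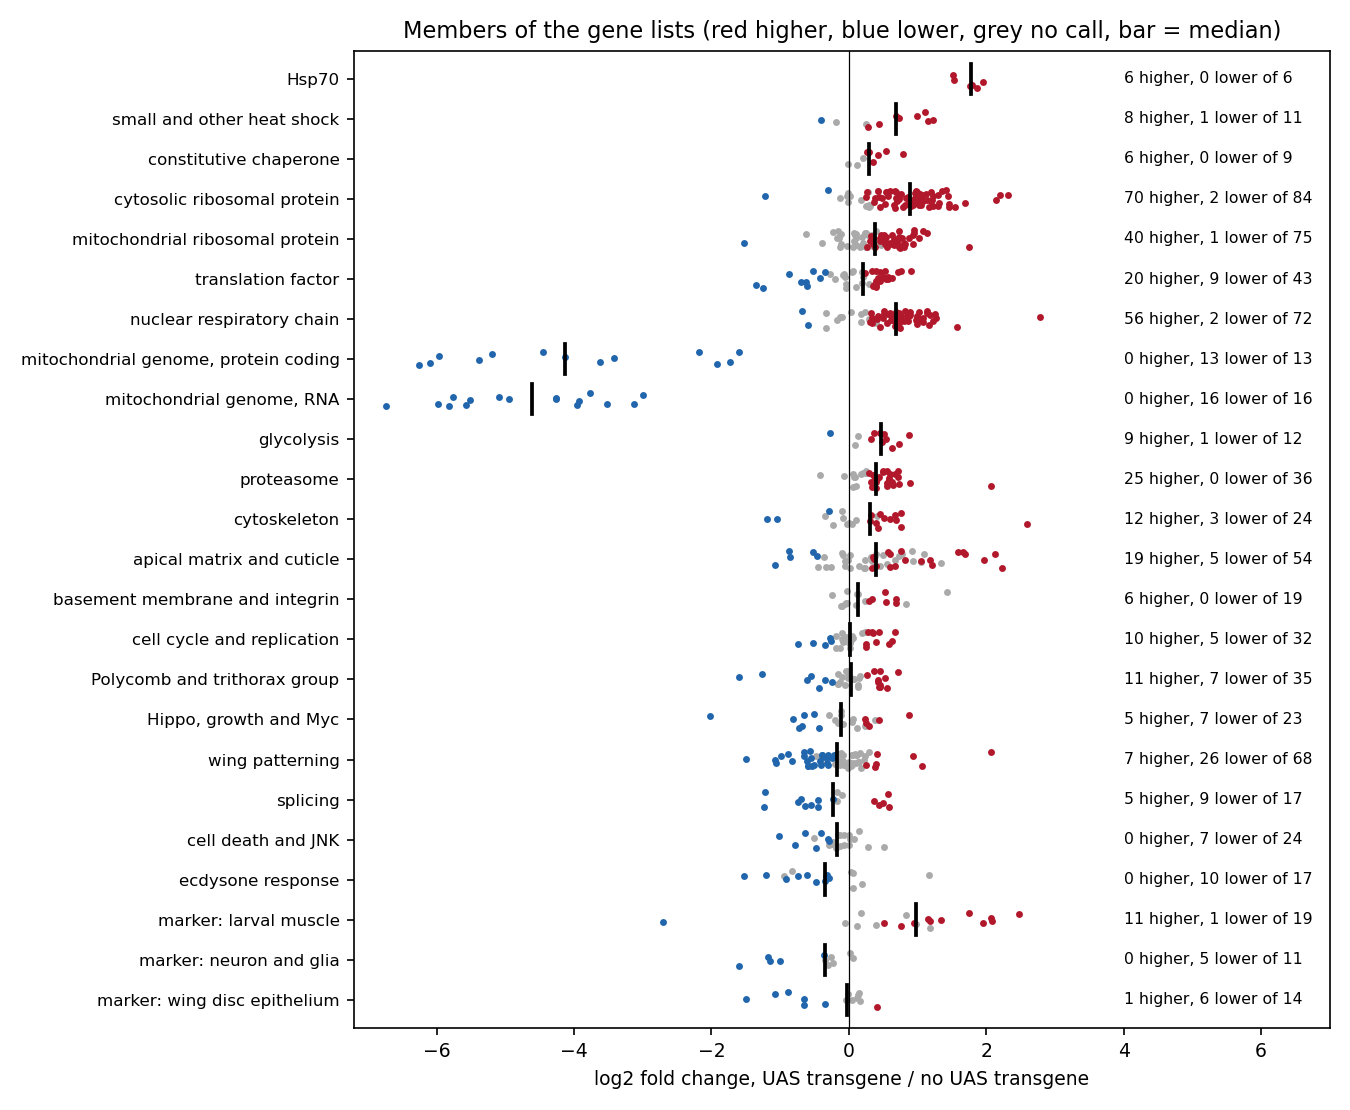
Members of 24 gene lists are plotted by their log2 fold change, UAS transgene over no UAS transgene, each dot a gene, with red for genes called higher, blue for genes called lower, grey for no call and a black bar at the list's median. Counts at the right run from 70 higher of 84 cytosolic ribosomal protein genes to 13 lower of 13 protein-coding genes of the mitochondrial genome.

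Other housekeeping groups differed among themselves. Proteasome subunits were higher in 25 of 36 cases (69.4%) and lower in none, with a median of 0.40, against 20.7% and 17.5% of all genes. Prosalpha3, of the core particle, had 227 and 222 CPM in the assays, against 127 and 114 CPM in the controls (0.89, adjusted p = 0.00032), and Rpt1, an ATPase of the cap, 274 and 275 CPM in the assays against 175 and 161 in the controls (0.71). Glycolytic enzymes were higher in 9 of 12 cases (75%, against 20.7% of all genes), with a median of 0.47. Tpi, triose phosphate isomerase, had 100.1 and 104 CPM in the assays, against 57.3 and 54.1 CPM in the controls (0.87, adjusted p = 0.000234) and Gapdh1 288 and 295 CPM in the assays against 201 and 175 in the controls (0.63). Only Hex-A, the hexokinase at the head of the pathway, was called lower (-0.27), and that call was lost without FH-cortoCD, sd::Gal4/+ or w1118.

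Aminoacyl-tRNA synthetases, which charge transfer RNAs, were higher in 7 of 31 cases (22.6%), close to the 20.7% of all genes, and lower in 2 (6.45%), and 22 had no call. Translation factors were divided, with 20 of 43 higher (46.5%) and 9 lower (20.9%), against 20.7% and 17.5% of all genes. eIF3h, of the initiation complex that loads the small subunit, had 463 and 458 CPM in the assays, against 257 and 235 CPM in the controls (0.91, adjusted p = 0.000276). eEF1alpha1, the elongation factor that brings in aminoacyl-tRNA and the most abundant of the list, had 20362 and 20034 CPM in the assays against 14452 and 15188 in the controls (0.45, lost without sd::Gal4/+). eIF4H1 had 209 and 184 CPM in the assays, against 525 and 477 CPM in the controls (-1.35, adjusted p = 0.000142), and eIF4B, a partner of the helicase eIF4A on the arm 2RHet, 87.7 and 86.7 CPM in the assays against 206 and 207 in the controls (-1.24). Of 20 nucleolar and ribosome assembly genes, 5 were higher (25%) and 2 lower (10%), against 20.7% and 17.5% of all genes. Their median of 0.020 was close to that of all genes. Nop10, a protein of the RNA-guided pseudouridylation complexes, was among those that rose (1.60), and Tif-IA, the initiation factor of RNA polymerase I, among those that fell (-0.79). Cell cycle and replication genes were higher in 10 of 32 cases (31.3%) and lower in 5 (15.6%), against 20.7% and 17.5% of all genes, and their median of 0.011 was near that of all genes. PCNA, the sliding clamp of replication, had 283 and 276 CPM in the assays against 179 and 170.3 in the controls (0.68), Mcm3, of the replicative helicase, 149 and 163 CPM in the assays against 111 and 97.4 in the controls (0.58), and the transcription factor E2f1 155 and 151 CPM in the assays against 261 and 249 in the controls (-0.74).

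Genes that shape the wing were lower more often than higher. Of 68 patterning genes, 7 (10.3%) were higher and 26 (38.2%) lower, against 20.7% and 17.5% of all genes, with a median of -0.17. hth, a homeobox gene of the hinge and notum, had 114 and 90.9 CPM in the assays, against 293 and 289 CPM in the controls (-1.50 ± 0.12, adjusted p = 0.00016). ap, which specifies the dorsal compartment, had 116 and 112 CPM in the assays, against 199.9 and 220.2 CPM in the controls (-0.88 ± 0.08, adjusted p = 0.000308). elB, a zinc finger gene, had 62.4 and 61.1 CPM in the assays against 124 and 120.3 in the controls (-0.99), and ci, the transcription factor of Hedgehog signalling on chromosome 4, 242 and 207 CPM in the assays against 465 and 469 in the controls (-1.06). The 7 that rose were Doc3, Lim1, N, ds, en, ft and vn. ft, an atypical cadherin of growth control, had 1004 and 998 CPM in the assays, against 464 and 494 CPM in the controls (1.06 ± 0.08, adjusted p = 0.000144). Its partner ds had 1034 and 970.4 CPM in the assays against 721 and 782 in the controls (0.42, lost without sd::Gal4/+), and N, the Notch receptor, 1045 and 1145 CPM in the assays against 575 and 572 in the controls (0.93, adjusted p = 0.000235).

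The entry named Antp, after the homeotic gene of the thorax, fell more than any patterning gene. It had 326 and 260.1 CPM in the assays, against 1062 and 945 CPM in the controls (-1.78 ± 0.12, adjusted p = 0.000135). It lies on 3R from 9463426 to 9466190 of dm3. On that arm it is between Hsp70Aa, from 7779885, and Ubx, from 12482098. The place was not checked against the position of Antp. Whether these values belong to Antp is therefore uncertain, and nothing about Antp is concluded from them. Of 6 homeotic genes tested, counted with that entry as Antp, Ubx also fell, at 1.66 and 2.14 CPM in the assays against 3.68 and 4.39 in the controls (-1.08). Abd-B was called higher at 0.522 and 0.456 CPM in the assays against 0.0843 and 0.0714 in the controls, from 22 and 20 reads in the assays and 3 and 2 in the controls, a call lost with DESeq2 (adjusted p = 0.0599), with all entries added up and without FH-cortoCD or either control. Polycomb and trithorax group genes, the partners of Corto, were higher in 11 of 35 cases (31.4%) and lower in 7 (20.0%), against 20.7% and 17.5% of all genes. Their median of 0.026 stood beside 0.027 over all genes. pho, a DNA-binding Polycomb protein encoded on chromosome 4, had 43 and 35.7 CPM in the assays, against 116 and 122 CPM in the controls (-1.59 ± 0.10, adjusted p = 0.000112). lolal, another gene of the list, had 39.5 and 41.3 CPM in the assays against 97.4 and 96.8 in the controls (-1.27), and Pc, the chromodomain protein Polycomb, 21.8 and 21.9 CPM in the assays against 33.1 and 33.9 in the controls (-0.62). On the trithorax side, trx had 327 and 314 CPM in the assays against 183 and 206 in the controls (0.72) and osa, of the Brahma remodelling complex, 649 and 613 CPM in the assays against 469 and 473 in the controls (0.42).

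Ecdysone response genes, through which the moulting hormone acts, were lower in 10 of 17 cases (58.8%) and higher in none. Over all genes 17.5% were lower and 20.7% higher. Hr3, a nuclear receptor induced by the hormone, had 20.5 and 16.1 CPM in the assays, against 59.6 and 45.5 CPM in the controls (-1.52 ± 0.16, adjusted p = 0.000451). EcR, the hormone receptor, had 59.5 and 60.1 CPM in the assays, against 120.4 and 104 CPM in the controls (-0.91, adjusted p = 0.000367). ImpE2, an ecdysone-inducible gene of discs and the most abundant of the list, differed little, with 3244 and 2991 CPM in the assays against 3809 and 3821 in the controls (-0.29, lost without either control). Of 24 cell death and JNK genes, 7 were lower (29.2%, against 17.5% of all genes), none higher and 17 without a call. puc, the phosphatase that feeds back on JNK, had 19.5 and 21.7 CPM in the assays, against 43.5 and 40.3 CPM in the controls (-1.02, adjusted p = 0.000301), and bsk, the JNK kinase itself, 22.2 and 22.8 CPM in the assays against 36 and 41.3 in the controls (-0.78). Splicing factors were lower in 9 of 17 cases (52.9%) and higher in 5 (29.4%), against 17.5% and 20.7% of all genes. Among them were mub (-1.23) and SF2 (-0.64), both lower. Of 23 Hippo, growth and Myc genes, 5 were higher (21.7%) and 7 lower (30.4%), against 20.7% and 17.5% of all genes. Mnt, the antagonist of Myc, had 20.9 and 14.7 CPM in the assays, against 77.2 and 67 CPM in the controls (-2.02 ± 0.16, adjusted p = 0.000178). S6k, a kinase of insulin and TOR signalling, was lower (-0.65), and Thor, the 4E-BP repressor of translation, was higher (0.88).

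**Figure D3:**
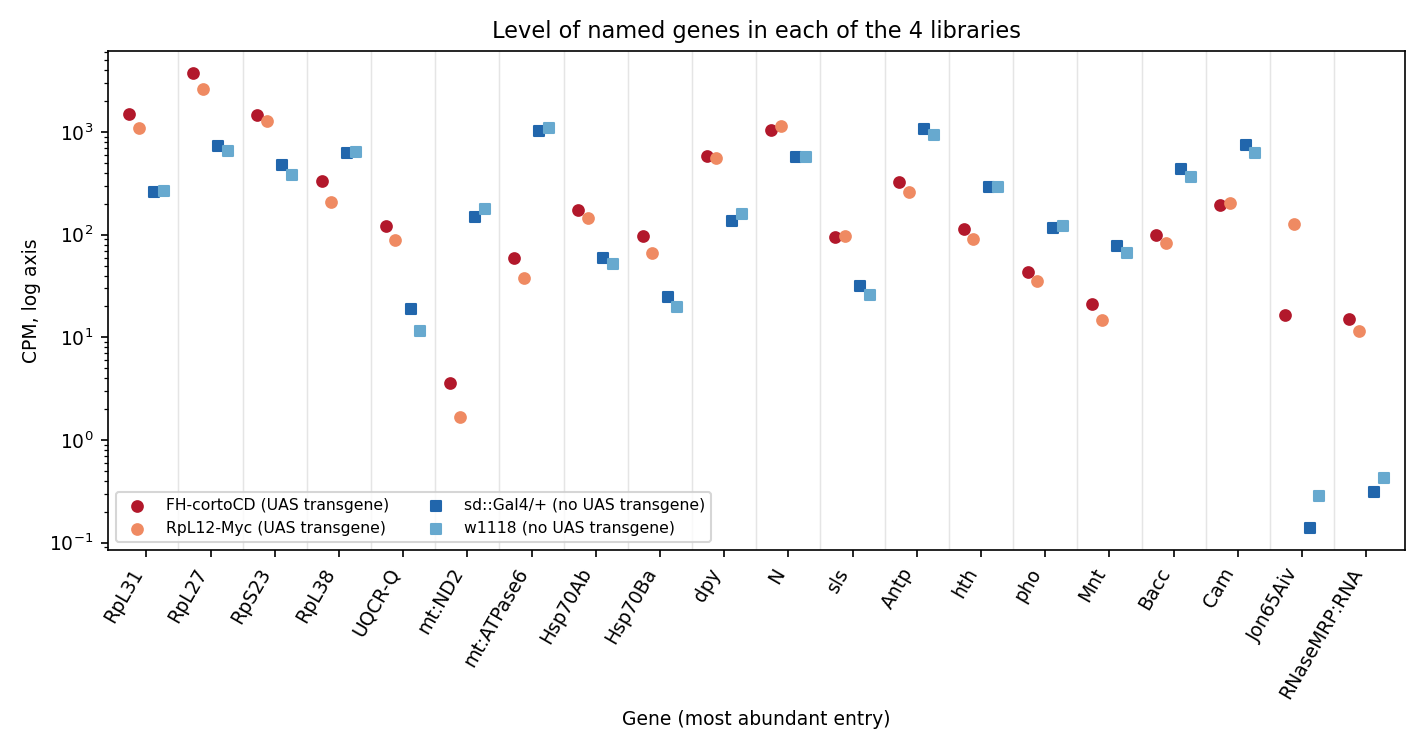
Level of 20 named genes in CPM on a log axis, with a circle for each UAS transgene library and a square for each library without one. The circles and squares of a gene do not overlap, and Jon65Aiv shows a wide distance within the assays, where RpL12-Myc stood at 128 and FH-cortoCD at 16.7 CPM. Whether the entry shown as Antp belongs to that gene is uncertain.

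The 15 largest rises, ranked by the gap between the groups, were led by digestive enzymes that the larval gut makes. Jon65Aiv, a Jonah serine protease, had 16.7 and 128 CPM in the assays, against 0.14 and 0.286 CPM in the controls (8.44 ± 1.31, adjusted p = 0.00226, but 0.144 with limma-voom). Jon65Aiii had 13.9 and 92 CPM in the assays, against 0.0562 and 0 CPM in the controls, with no read in w1118 and 2 in sd::Gal4/+, and its call was lost with limma-voom (adjusted p = 0.116). yip7, a related protease, had 6.69 and 23.1 CPM in the assays against 0.0562 and 0.107 in the controls, and Jon25Bi 4.77 and 14.3 CPM in the assays against 0 and 0.179 in the controls. gammaTry, a trypsin, had 2.92 and 19.4 CPM in the assays and no read in either control. The mean of the assays was at least 104-fold higher against a floor of 3 reads per library, and most of that mean came from RpL12-Myc. RpL12-Myc was the higher assay for each of these proteases, by several times. Trypsin genes of this cluster are close copies, so their separate levels are uncertain.

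Of 45 larval midgut markers, 12 had enough reads to test, most of them only through the assays, where they are high, and 8 had a library under 3 reads. The counts of 9 higher and 1 lower among them, beside 20.7% and 17.5% of all genes, are therefore largely set by the filter on low counts. With at least 10 reads in every library none was called higher and the median was -1.75. The summed level of all 45 was 57.0 and 345 CPM in the assays, against 2.98 and 3.86 CPM in the controls. The midgut genes were not alike: Mal-A6 was not called, Npc2f was the one that fell (-1.77), and the other maltases, the LMan mannosidases and the 5 Jonah genes of 99C and 99F had at most 9 reads in any library. Whether gut tissue among the discs had a part in these values was not tested. Other genes of the 15 lay outside the marker list. Obp56d, an odorant-binding protein gene, had 24.5 and 6.47 CPM in the assays, against 0.449 and 0.464 CPM in the controls (5.07 ± 0.72, adjusted p = 0.00158). CG14332 had 9.34 and 3.24 CPM in the assays and no read in either control, the mean of the assays being at least 58.7-fold higher against the floor of 3 reads. For both, FH-cortoCD was the higher assay, unlike the proteases. In bulk RNA, fewer cells of a type and less RNA per cell cannot be told apart.

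The other cell types that a dissected disc may carry were read from their own markers. Fat body markers were not called, 0 of 10, and their sum was 804 and 1139 CPM in the assays, against 1584 and 139 CPM in the controls, so that w1118 stood apart from the other libraries. Larval muscle genes were higher in 11 of 19 cases (57.9%) and lower in 1 (5.26%), against 20.7% and 17.5% of all genes. They summed to 1172 and 1202 CPM in the assays, against 705 and 729 CPM in the controls. Mhc, the muscle myosin heavy chain, had 10.9 and 10.5 CPM in the assays, against 3.06 and 2.43 CPM in the controls (1.95 ± 0.16, adjusted p = 0.000186), and Mlc1 2.49 and 2.46 CPM in the assays against 0.506 and 0.678 in the controls (2.07). TpnC25D, a troponin C, was the member that fell, with 0.901 and 0.41 CPM in the assays against 5 and 3.53 in the controls (-2.71). Of 12 markers of the disc's own myoblasts, 2 were higher (16.7%) and 3 lower (25%), with a median of -0.0086. Blood cell markers were higher in 2 of 13 cases (15.4%) and lower in 1 (7.69%). For salivary gland 0 of 9 were higher and 1 lower (11.1%), and for trachea 3 of 6 were higher (50%) and 2 lower (33.3%). Neuron and glia markers were lower in 5 of 11 cases (45.5%, against 17.5% of all genes), among them elav at 27.8 and 25.8 CPM in the assays against 54.1 and 53 in the controls. Of 14 wing disc epithelium markers, 1 was higher (7.14%) and 6 lower (42.9%), against 20.7% and 17.5% of all genes. Their sums were 2842 and 2615 CPM in the assays, against 2858 and 2989 CPM in the controls, so the defining markers of the tissue were present in every library. The RNA lncRNA:roX1, which marks male cells, had 10.2 and 13.4 CPM in the assays against 16.1 and 29.1 in the controls (-0.93, adjusted p = 0.0263), a call lost with DESeq2 and without FH-cortoCD or w1118. The discs are described as female.

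The 15 largest falls were mostly genes of low level. CG12990 had 1.16 and 0.41 CPM in the assays, against 6.35 and 5.75 CPM in the controls (-2.95 ± 0.38, adjusted p = 0.00107). spo, a Halloween gene of ecdysone synthesis, had 0.545 and 0.274 CPM in the assays against 2.56 and 3 in the controls (-2.75), Irk3, a potassium channel, 0.83 and 0.844 CPM in the assays against 3.65 and 3.75 in the controls (-2.14), and GluRIIE, a glutamate receptor subunit of the muscle, 0.64 and 0.638 CPM in the assays against 2.92 and 2.5 in the controls (-2.08). Crg-1 (-2.46) and CG7367 (-2.42) fell to a like extent. Higher levels belonged to Bacc, with 100.2 and 82.3 CPM in the assays, against 436 and 366 CPM in the controls (-2.14 ± 0.13, adjusted p = 9.16e-05), and Galphaq, a G protein subunit, with 26.8 and 18.9 CPM in the assays against 97 and 90.2 in the controls (-2.03). Genes with at least 50 reads in every library were then ranked in the same way, a step added after the values had been seen. It brought up Cam, which encodes calmodulin, with 197 and 204 CPM in the assays, against 754 and 632 CPM in the controls (-1.79 ± 0.10, adjusted p = 8.95e-05). Df31, a chromatin decondensation factor, had 646 and 667 CPM in the assays, against 2313 and 1947 CPM in the controls (-1.70 ± 0.10, adjusted p = 8.95e-05). CkIalpha, a kinase of Wnt and Hedgehog signalling, had 127 and 117 CPM in the assays against 402 and 369.7 in the controls (-1.66), and stai, the fly stathmin, 57.8 and 59.4 CPM in the assays against 183 and 216 in the controls (-1.77). In the most abundant entry of these 4 genes both assays lay far below both controls. Cam, Df31 and CkIalpha have 5 entries each, stai and Bacc 6 and Galphaq 11. Their other entries were not compared here, so these falls are those of the entry read and not of the whole gene.

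On the rising side the same ranking named long genes beside short mitochondrial ones. dpy encodes Dumpy, a giant protein of the apical matrix, and its longest entry, of 20788 bases on chromosome 2L from 4479471 to 4591963 of dm3, had 587 and 557 CPM in the assays, against 136 and 158 CPM in the controls (1.96 ± 0.10, adjusted p = 7.16e-05). The other 10 tested entries of dpy were also called higher, by 2.15 to 4.41 on the log2 scale in the 8 of them with at least 3 reads in every library. sls, the fly titin, with an entry of 14637 bases, had 95.6 and 98.1 CPM in the assays, against 31.6 and 26.1 CPM in the controls (1.75 ± 0.10, adjusted p = 8.95e-05). Outside the 25 largest, Msp300, a nesprin with an entry of 12343 bases, had 483 and 458 CPM in the assays, against 208 and 214 CPM in the controls (1.16 ± 0.08, adjusted p = 0.000127). HUWE1, a ubiquitin ligase also named after its values were seen, had 738 and 747 CPM in the assays against 322 and 352 in the controls (1.14). Tim10, a chaperone of the mitochondrial intermembrane space with an entry of 430 bases, had 74 and 62.2 CPM in the assays, against 20.6 and 20.3 CPM in the controls (1.74 ± 0.10, adjusted p = 9.16e-05). Apical matrix and cuticle genes as a list were higher in 19 of 54 cases (35.2%) and lower in 5 (9.26%), against 20.7% and 17.5% of all genes. Among the falls was obst-A (-1.07), and among the rises verm, a chitin deacetylase (0.57). Of 19 basement membrane and integrin genes, 6 were higher (31.6%, against 20.7% of all genes), none lower and 13 without a call, with a median of 0.13, LanA at 1035 and 1038 CPM in the assays against 657 and 764 in the controls (0.54) and SPARC at 57.6 and 59.6 CPM in the assays against 34.9 and 38 in the controls (0.69) among them. Of 24 cytoskeletal genes, 12 were higher (50%) and 3 lower (12.5%), against 20.7% and 17.5% of all genes. The tubulins alphaTub84B (0.67) and betaTub56D (0.68) were among the 12 rises, and Tm1 (-1.19) and Moe (-1.04) among the 3 falls.

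Structural RNAs gave some of the widest gaps. As for the mitochondrial RNAs, the part of the selection for polyadenylated RNA in these values was not tested. RNaseMRP:RNA, the RNA of the enzyme that cuts ribosomal RNA precursors, had 15.2 and 11.5 CPM in the assays, against 0.309 and 0.428 CPM in the controls (5.19 ± 0.25, adjusted p = 5.92e-05). RNaseP:RNA, of the related enzyme that trims transfer RNAs, had 13.6 and 8.3 CPM in the assays against 3.12 and 2.78 in the controls (1.89). The RNAs of the signal recognition particle, 7SLRNA:CR32864 and 7SLRNA:CR42652, rose by 4.20 and 3.87 on the log2 scale, and as close copies they are not separable. Of 143 structural RNA genes, though, only 11 were higher (7.69%) and 19 lower (13.3%), with a median of -0.36. Both shares were below the 20.7% and 17.5% of all genes. Among transcripts outside that list, a ribosomal RNA fragment annotated as the pseudogene 28SrRNA-Psi:CR40596 had 39.3 and 31.4 CPM in the assays, against 3.85 and 3.57 CPM in the controls (3.25), and lncRNA:CR34335 2769 and 1365 CPM in the assays against 471 and 527 in the controls (2.05).

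The change also followed position along the gene. For 2252 genes, the first entry at the 5′ end and the last at the 3′ end did not overlap and were both tested. The first entry had the larger log2 fold change in 1616 of them (71.8%). Its median was 0.15, against -0.16 for the last entry. First entries were higher in 24.8% and lower in 11.9% of genes, last entries higher in 12.8% and lower in 35.6%. In 113 genes the first entry was called higher and the last lower, and in 4 genes the reverse. Where both entries had 50 or more reads per library, the first entry was the larger in 1350 of 1832 genes (73.7%). Centred on each gene's mean, the median log2 ratio of first to last entry was 0.20 and 0.15 in the assays, against -0.19 and -0.15 in the controls, so the libraries divide by group on this measure.

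Notch shows the pattern in a single gene. Its first entry, of 8561 bases, had 1045 and 1145 CPM in the assays, against 575 and 572 CPM in the controls, and rose by 0.93 on the log2 scale. Its last entry, of 1628 bases, had 67.6 and 59.3 CPM in the assays, against 156 and 122 CPM in the controls, and was called lower, at -1.13. mask and trx behaved alike, with 0.96 and 0.72 for the first entry and -0.94 and -0.89 for the last. In RpL12, where all entries had positive values, both entries at the 5′ end were at 1.38 and 1.39 and both at the 3′ end at 0.44, without a call at the 3′ end. In all, 292 of the 3029 genes with more than 1 tested entry held entries called in both directions. The fold change of a gene in this comparison therefore depends on which of its exons is read, and counts per gene are counts of most abundant entries. With all entries of a gene added up, 1625 genes were higher and 1566 lower.

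**Figure D4:**
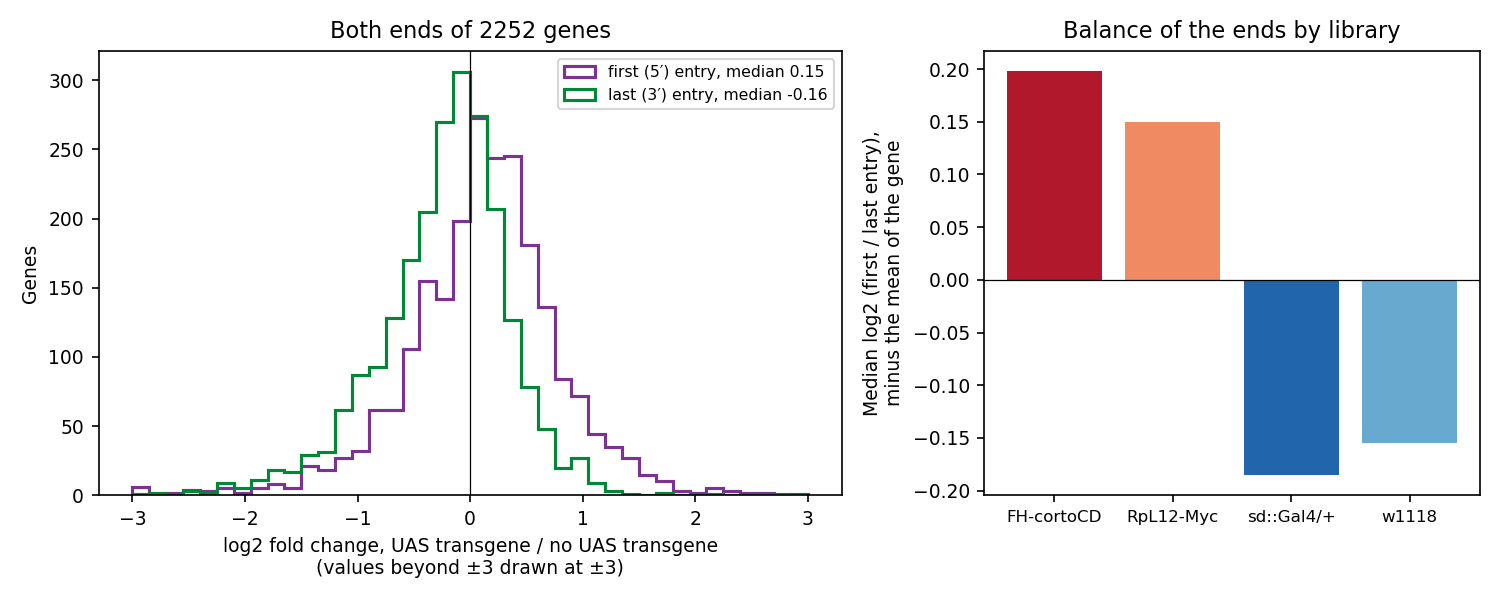
Left, the number of genes by log2 fold change of the first (5′) and of the last (3′) entry, over 2252 genes in which the entries do not overlap, with medians of 0.15 and -0.16. Right, the median log2 ratio of first to last entry in each library after subtraction of the gene's mean, above 0 in both UAS transgene libraries (0.20 and 0.15) and below 0 in both libraries without a transgene (-0.19 and -0.15).

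Chromosome 4 stood apart among the nuclear arms. Of its 72 tested genes, 48 (66.7%) were lower and 2 (2.78%) higher, against 17.5% and 20.7% of all genes. Their median was -0.65, whereas the medians of 2L, 2R, 3L, 3R and X lay between -0.0032 and 0.095. This small chromosome is largely heterochromatic, though its genes are expressed. Pur-alpha had 12.2 and 8.87 CPM in the assays, against 38.3 and 34.6 CPM in the controls (-1.79 ± 0.15, adjusted p = 0.000211), myo, a myostatin-like ligand, 27.7 and 23.8 CPM in the assays against 71.3 and 74.9 in the controls (-1.50), and Zyx, the actin regulator zyxin, 37 and 28.7 CPM in the assays against 83.7 and 85.4 in the controls (-1.36). lncRNA:sphinx was one of the 2 genes that rose (1.81). The 68 genes on heterochromatic arms and unplaced sequence were alike, with 36 lower (52.9%), 9 higher (13.2%) and a median of -0.59. On the X, 26.45% of 1501 genes were higher and 14.6% lower, against 19.8% and 17.02% of the 7346 genes on arms 2L, 2R, 3L and 3R. Of 9 dosage compensation and sex genes tested, 3 were lower (33.3%), 1 higher (11.1%) and 5 without a call, with a median of 0.058. Over all genes 17.5% were lower and 20.7% higher. Lower were, among others, mle (-0.53) and msl-1 (-0.38), both of the male dosage compensation complex.

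The change varied with the length of the entry as well. Entries of 300 to 600 bases had a median of 0.29, with 181 of 533 genes higher and 45 lower. Those of 600 to 1000 bases had 0.17, those of 1000 to 2000 bases 0.050, and those of 2000 to 4000 bases -0.075, with 311 of 2652 genes higher and 682 lower. The order broke at both ends, with -0.26 for 207 genes under 300 bases and 0.040 for 828 genes of 4000 bases or more. Without the ribosomal protein genes the class of 300 to 600 bases had a median of 0.27. The libraries of a group did not share this trend equally. After centring on each gene's mean, the median log2 level at 300 to 600 bases was 0.31 and 0.039 in the assays. In the controls it was -0.087 and -0.208. At 2000 to 4000 bases it was -0.074 and 0.0048 in the assays, against 0.046 and 0.033 in the controls. RpL12-Myc thus lay near 0 in both classes. After a loess correction of each library for length, 2155 genes were higher and 1412 lower. Position, arm and length were all measured in the same 4 libraries, and their part in the calls of single genes was not tested.

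**Figure D5:**
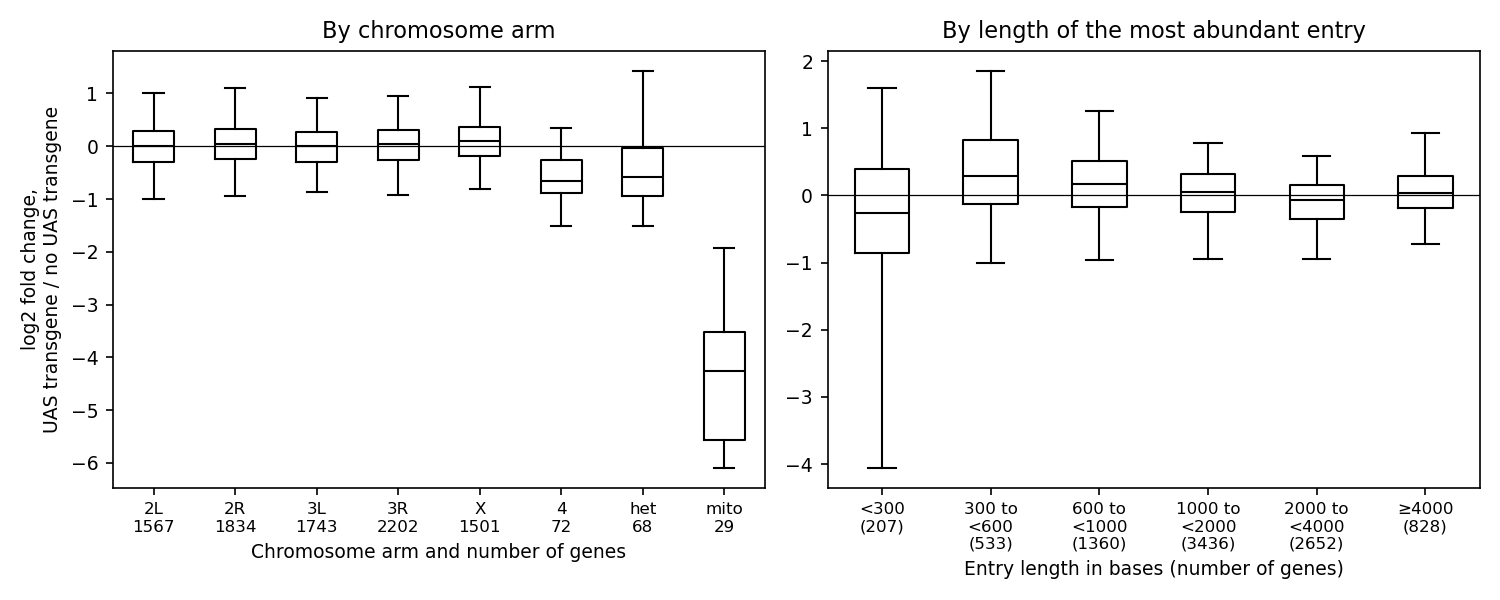
Box plots of the log2 fold change, UAS transgene over no UAS transgene, by chromosome arm (left, het standing for heterochromatic arms and unplaced sequence, mito for the mitochondrial genome) and by length of the gene's most abundant entry (right). Boxes span the quartiles, lines mark the medians and whiskers the 5th and 95th percentiles, and chromosome 4, het and mito have medians of -0.65, -0.59 and -4.27.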

How the data were processed

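By the study's methods and the labels, polyadenylated RNA was sequenced in pairs of 50 bases on a HiSeq 2000 with a kit that does not mark strand, so a gene and its antisense partner cannot be told apart. Per the labels, CASAVA 1.7, Bowtie and SAMtools were used. Reads were aligned to dm3, and reads matching more than 1 place were discarded. What the authors deposited were whole-number counts (a file for each read of the pair) of alignments overlapping each entry of the FlyBase annotation, without normalization, and beside them a fraction of the library's transcript alignments, used here only to obtain the number of alignments. Both reads of a pair were summed. They come from 1 fragment, and reads in overlapping entries count more than once (1.26 counts per alignment), so counts overstate independent observations.

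Of 30950 entries, 28099 with 93.5% of counts were named by transcript ID (27902) or by the study's gene tables (197), giving 14095 genes. Coordinates are those of dm3. Entries passing filterByExpr were tested with edgeR 4.0.16 (R 4.3.3), glmQLFit and glmQLFTest, TMM scaling and Benjamini-Hochberg adjustment over 20118 entries. The common biological coefficient of variation was 0.112. Where ± follows a log2 fold change, it gives an approximate standard error, the size of the change divided by the square root of the test's F value. An exact permutation of 2 against 2 libraries cannot give a two-sided p below 0.333 and was not used. On simulated counts the fit recovered 98 of 100 entries changed by 1 on the log2 scale and 100 of 100 changed by 2, and called 3 of 19880 unchanged ones. The simulation gave every entry the same dispersion (0.0125), drew entries independently and changed few of them, all with many reads. It therefore checks the fit under those settings and does not measure its error rate on these data.

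Named are RpL12, corto and w, the 15 largest rises and falls (called, groups apart, at least 50 reads in the highest library, ranked by the log2 gap between groups, with libraries under 3 reads set at 3), up to 5 each way among ribosomal protein, mitochondrial genome and structural RNA genes, and, from each other list, the 2 most abundant and up to 3 called genes each way with the largest gap. Genes ranked with 50 reads in every library, those of chromosome 4, and the first and last entries were chosen after their values were seen, as were Abd-B, HUWE1, Npc2f, Mal-A6 and the risen patterning genes outside the rule. The comparison and the lists were chosen with earlier results of these data known. Alternatives were RLE factors, library totals, 2 other filters, DESeq2 1.42.0, limma-voom 3.58.1, each read alone, 1 entry per gene, gene sums, stricter thresholds, a length correction and leaving out each library. Some genes that the rule names are not reported here. No sequence is printed, and base composition was not analysed here.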

Additional observations from a re-analysis of the deposited data

How the results depend on the processing

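Called genes were 354 higher and 336 lower, and called entries 852 and 1096, at an absolute log2 fold change above 1. At an adjusted p below 0.01 they were 960 and 885 genes and 1899 and 2310 entries. Leaving out 1 library at a time gave 1076 to 1566 genes higher, 1133 to 1263 lower, 2274 to 2924 entries higher and 2805 to 3219 lower, with fewer samples in each fit. The lowest counts of higher calls came without w1118. Cytosolic ribosomal protein genes above 1 numbered 28 higher and 1 lower, with 1 lower at p below 0.01 and 1 to 3 lower when a library was left out. Nuclear respiratory chain genes above 1 numbered 14 higher and 0 lower, with 1 lower at p below 0.01. The median of the mitochondrial protein-coding genes ranged over -4.60 to -3.63 without 1 library. No called gene among those named changed sign. Of 125 named genes, 14 changed their call under an alternative other than the stricter thresholds, and each loss is given beside its gene or here: Hex-A lost its call with the length correction too (adjusted p = 0.0579). With at least 10 reads in every library, no midgut gene was called higher, since that filter drops genes near 0 in the controls, and the median of the midgut genes left was -1.75. No paired analysis was possible because the libraries carry no shared replicate numbers. With 2 libraries a side, no sample could be tested as standing apart from its group. Depth was lowest in w1118, where 3 reads equal 0.107 CPM, and differences below that level were not detectable.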
